A study of Mus musculus with 18 samples.

Results

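The enzymes of fatty acid beta-oxidation were examined as a list of 31 mouse genes, chosen by symbol for what their products do. The choice was made with earlier results of these data known. All 31 were found among the 10597 genes of the deposited tables. The list holds 5 genes of the carnitine shuttle, 8 acyl-CoA dehydrogenases, 6 enzymes of the chain-shortening steps, 3 auxiliary enzymes, 3 genes of the electron transfer flavoprotein system, 3 peroxisomal enzymes and 3 genes that control the pathway. The samples were left ventricles of untreated male C57BL/6 mice aged 20 weeks, 4 wild type (hearts 1 to 4) and 5 mORF4/NBDY knockout (hearts 6 to 10). NBDY is a microprotein that binds the mRNA decapping machinery, and the sources used here do not give how the knockout allele was made. Each heart gave a poly-A RNA library, which measures transcript level, and a library of ribosome footprints, the mRNA fragments covered by ribosomes. The ratio of footprints to RNA in the same heart is called translational efficiency below. The comparison asks how the loss of NBDY alters the level and the ribosome occupancy of these transcripts.

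Long-chain fatty acids enter mitochondria as carnitine esters and are then shortened in a repeating cycle of dehydrogenation, hydration, a further dehydrogenation and thiolysis. The electrons pass through the electron transfer flavoprotein to the respiratory chain, and the acetyl-CoA feeds the citric acid cycle. This pathway supplies most of the fuel of the adult heart, and its genes are known targets of the nuclear receptor PPAR alpha.

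Nbdy itself had 107 to 355 normalized footprint reads in wild type and 10.9 to 19.0 in knockout, which is -3.45 ± 0.48 (SE) as a log2 fold change with an adjusted p of 0.0191 in limma. Its RNA was 100.1 to 116 normalized reads in wild type and 61.8 to 90.0 in knockout, so each label was matched in both assays. Read totals (M, 1e6 reads over the listed genes) were 11.2 to 12.4 M for wild-type RNA and 15.8 to 20.2 M for knockout RNA. These ranges do not overlap, so RNA depth and genotype cannot be told apart. Read totals rest on whole reads recovered from the normalized values. In knockout RNA too few values were low enough to check that recovery. Footprint totals were 6.67 to 36.7 M and 22.9 to 40.8 M, and wild-type heart 2 was the shallowest. The least covered member still had 136 reads in any RNA library and 39 in any footprint library. All 7 cardiomyocyte markers were present in every library, as the labelled tissue implies. Their summed RNA ran from 1924876 to 2210387 normalized reads in wild type and from 1617171 to 1847210 in knockout, without overlap, and 4 of the 7 (Tnnt2, Tnni3, Myl2 and Mb) fell. Their summed footprints overlapped between genotypes. Of 5 skeletal muscle markers 4 were measured. Their summed RNA was 68393 to 108252 normalized reads in wild type and 37773 to 53636 in knockout, and their summed footprints 44729 to 82501 and 14651 to 37448, both without overlap. A sum is weighted to its most abundant genes. Taken singly, 3 of the 4 fell in RNA. In footprints 0 of the 4 passed, 2 had a log2 fold change above 0, and the median was -0.07. Summed RNA of 6 endothelial markers was 16292 to 18240 in wild type and 14288 to 16258 in knockout. Of these 6, 2 rose in RNA and 3 fell, and their summed footprints overlapped between genotypes. The sums of fibroblast, macrophage, smooth muscle and erythrocyte markers overlapped in both assays, and the hepatocyte markers were not analysed here. In bulk tissue fewer cells of a type and less RNA per cell cannot be told apart, and the part of these markers in the results was not tested.

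In RNA, 17 of the 31 genes rose in knockout, 1 fell (Acadm) and 13 did not pass the test (limma on log2 of the normalized value plus 1, Benjamini-Hochberg adjusted p below 0.05 over all 10580 genes tested). Over all genes tested, 24.3% rose and 25.1% fell, while 54.8% of the list rose. The median log2 fold change was 0.27 over the list and 0.01 over all genes. Of the 31 values 25 were above 0, against 51.1% of all genes. For 13 members every knockout heart was above every wild-type heart, against 19.8% of all genes, and for 1 member every knockout heart was below, against 20.6% of all genes. In footprints none of the 31 passed, against 0.0200% of all 9976 genes tested in either direction. All 31 overlapped between genotypes, where 0.772% of all genes had every knockout heart above and 0.832% every knockout heart below. The count of 0 was the same with limma, edgeR and DESeq2 and in the authors' deposited table. An unadjusted limma p under 0.05 was found for 2 of the 31 members (Acaa2 and Hsd17b4), against 505 of all 9976 genes. Of the 31 footprint fold changes 27 were above 0, against 49.5% of all genes, with a median of 0.12 against -0.00 over all genes. The members moved together between hearts, as given below, so these values are not independent of each other. In translational efficiency 1 member rose (Acadm) and 3 fell (Acads, Echs1 and Cpt1b), where 7.83% of all genes rose and 6.55% fell. The fold changes of both assays are drawn side by side by role.

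**Figure D1:**
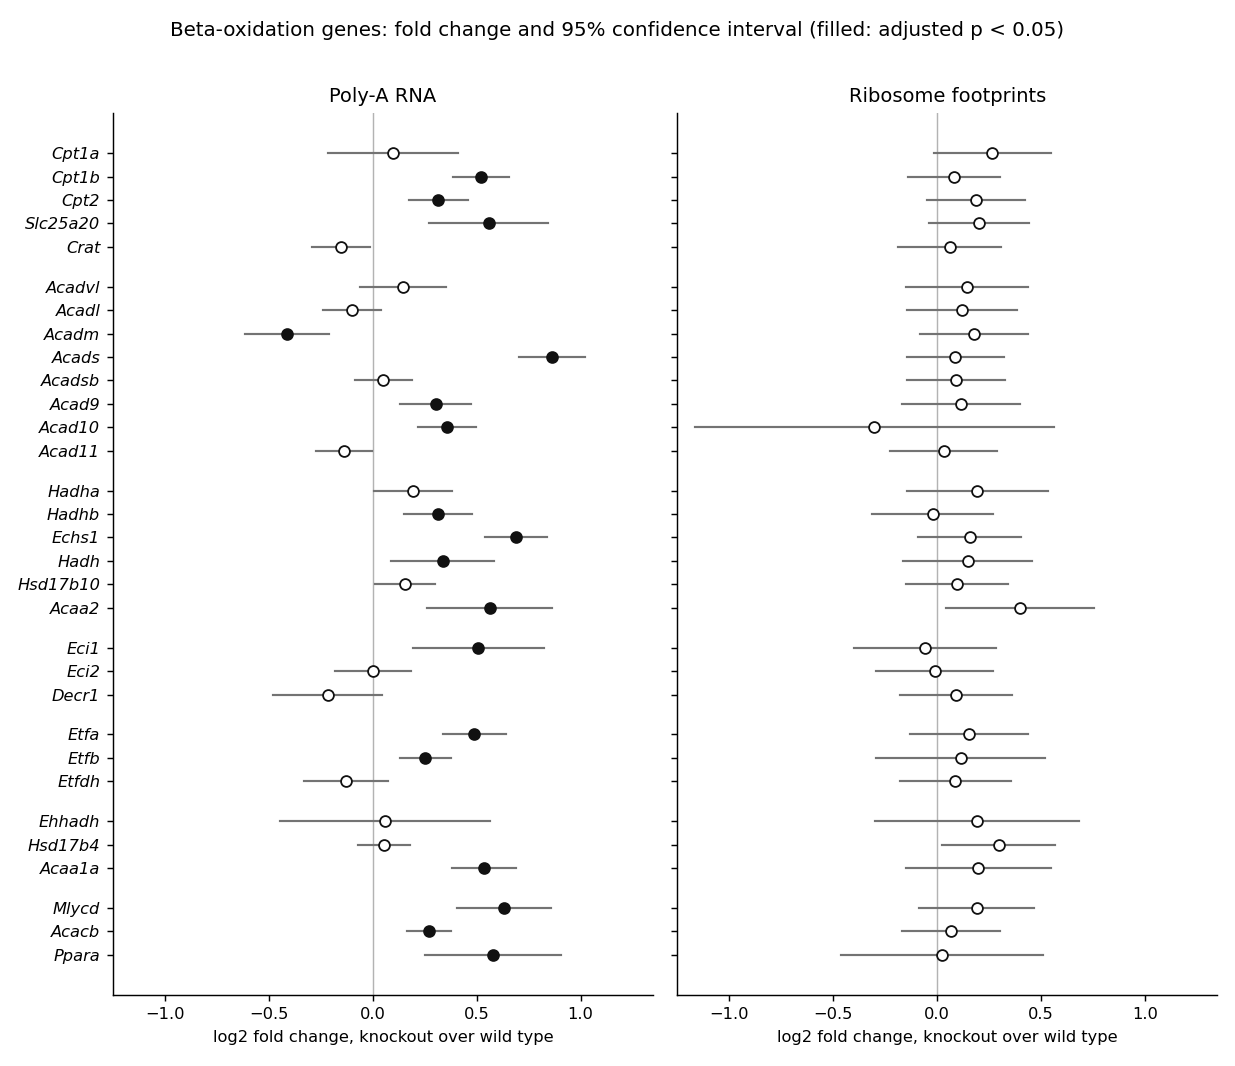
Log2 fold change of knockout over wild type (x axis) for each of the 31 genes (y axis, grouped by role) in poly-A RNA and in ribosome footprints, with 95% confidence intervals; filled points passed the limma test at an adjusted p below 0.05. In RNA 17 filled points lie above 0 and 1 below it, while no footprint point is filled and 27 of 31 lie above 0.

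The carnitine shuttle carries acyl groups across the inner mitochondrial membrane, and 3 of its 5 genes rose in RNA. Cpt1b encodes the muscle form of carnitine palmitoyltransferase 1, which makes the acylcarnitine and is the main point of control of entry. Its RNA in wild-type hearts 1 to 4 was 10958, 9906, 10015 and 10838 normalized reads, and in knockout hearts 6 to 10 it was 15005, 13740, 15998, 16095 and 14150. Every knockout heart was above every wild-type heart, and the log2 fold change was 0.52 ± 0.06 (SE, with a limma adjusted p of 3.5e-05). Cpt1b footprints were 31209, 32974, 32072 and 34205 normalized reads in wild type and 33825, 31575, 37596, 38589 and 31497 in knockout. These overlapped, with a log2 fold change of 0.08 and a 95% interval of -0.14 to 0.30, which does not reach the RNA change. Cpt1b overlaps Gm44502 in the annotation, which makes its RNA value uncertain without strand.

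Slc25a20 is the translocase that exchanges acylcarnitine for carnitine. Slc25a20 RNA was 1864, 1804, 1676 and 1985 normalized reads in wild type and 2651, 1945, 3342, 3158 and 2607 in knockout. The value of knockout heart 7 fell inside the wild-type range and the other knockout hearts were above it (log2 fold change 0.56 ± 0.13, limma adjusted p = 0.00397). Cpt2, which turns the acylcarnitine back into acyl-CoA, had 5149, 4605, 4447 and 4847 normalized RNA reads in wild type and 5816, 5307, 6337, 6372 and 5811 in knockout, with no overlap. Its log2 fold change was 0.32 ± 0.06 (limma adjusted p = 0.00181). Footprint fold changes were 0.20 for Slc25a20 (95% interval -0.04 to 0.44) and 0.19 for Cpt2 (-0.05 to 0.42), and neither passed. Cpt1a, the form that predominates in liver, had RNA and footprint log2 fold changes of 0.10 and 0.27, and Crat, which buffers acetyl-CoA as acetylcarnitine, of -0.15 and 0.06. Neither gene passed in either assay. Crat overlaps Dolpp1 in the annotation and the RNA kit does not mark strand, so its RNA value is uncertain.

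The acyl-CoA dehydrogenases open each turn of the cycle and differ in the chain length they accept. Of the 8, Acads, Acad10 and Acad9 rose in RNA, Acadm fell and 4 did not pass. Acads, the short-chain enzyme, had the largest RNA change of the 31 genes. Its RNA was 1988, 2009, 2003 and 2033 normalized reads in wild-type hearts 1 to 4 and 3443, 3109, 3956, 3979 and 3869 in knockout hearts 6 to 10. The wild-type mean was 2008 ± 18.9 normalized reads (SD, n = 4), every knockout heart was far above the wild-type hearts, and the log2 fold change was 0.86 ± 0.07 (SE, with a limma adjusted p of 3.26e-06). Acads footprints were 8644, 7641, 9186 and 9020 normalized reads in wild type and 8573, 8177, 10243, 10299 and 8621 in knockout. The groups overlapped, and the log2 fold change of 0.09 had a 95% interval of -0.15 to 0.32.

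Acadm, the medium-chain enzyme, went the other way in RNA. Its RNA was 29106, 32392, 32453 and 36222 normalized reads in wild type and 22203, 21182, 27872, 27476 and 24067 in knockout. Every knockout heart was below every wild-type heart, and the log2 fold change was -0.41 ± 0.09 (SE, with a limma adjusted p of 0.00324). Acadm footprints were 30976, 28805, 31972 and 37846 normalized reads in wild type and 30499, 33674, 40980, 42050 and 36232 in knockout, which overlap, with a log2 fold change of 0.18 (95% interval -0.08 to 0.44). The promoter of Acadm is shown because the gene is a classical target of the receptors of this pathway and is the member that fell. It is the RefSeq sequence (GRCm38.p6, chr3:153944644-153944893, minus strand, 250 bases before the gene's start, 5′ to 3′), and the capitals mark the receptor core motif AGGTCA, here on the opposite strand as TGACCT.
Acadm: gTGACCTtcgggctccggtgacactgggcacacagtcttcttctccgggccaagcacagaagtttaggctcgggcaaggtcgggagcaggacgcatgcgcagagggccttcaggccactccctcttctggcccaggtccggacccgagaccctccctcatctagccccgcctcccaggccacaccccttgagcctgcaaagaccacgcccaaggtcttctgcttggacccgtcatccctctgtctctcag
The motif was searched on both strands in windows from 250 bases before to 50 bases after a start, available for 25 of the 31 genes. For some genes, such as Acacb and Eci2, the start used lies inside the full span of the gene. The core motif was found in 5 of the 25 (Acadm, Echs1, Acadvl, Cpt1a and Acacb), or 20.0%, against 16.3% of all 32851 windows. The longer elements TCAAGGTCA and AGGTCANAGGTCA, both of which contain the core motif, were in 0 of the 25 windows, against 0.423% and 0.0396% of all windows. A match of letters does not show a bound site. Of the 5 genes with the core motif, Echs1 and Acacb rose in RNA, Acadm fell, and Acadvl and Cpt1a did not pass.

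Among the other dehydrogenases, Acad10 RNA was 650, 657, 747 and 683 normalized reads in wild type and 868, 919, 853, 808 and 941 in knockout, with no overlap (log2 fold change 0.36 ± 0.06, limma adjusted p = 0.00074). Its footprints were few, at 48.5, 135, 99.7 and 52.3 normalized reads in wild type and 86.4, 69.2, 53.9, 39.5 and 71.2 in knockout, and the 95% interval of their log2 fold change of -0.30 was wide, from -1.16 to 0.56. Acad10 overlaps Brap, so its RNA value is uncertain without strand. Acad9, which is known as an assembly factor of respiratory complex I as well as a dehydrogenase, had 575, 473, 542 and 510 normalized RNA reads in wild type and 574, 648, 710, 678 and 628 in knockout. The groups overlapped only at wild-type heart 1 and knockout heart 6, and the log2 fold change was 0.30 ± 0.08 (limma adjusted p = 0.00699). The very-long-chain enzyme Acadvl and the branched short-chain enzyme Acadsb had RNA log2 fold changes of 0.14 and 0.05, and the long-chain enzyme Acadl and Acad11 of -0.10 and -0.14. None of these 4 passed in RNA, and their footprint values ran from 0.03 to 0.15.

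The chain-shortening steps follow the dehydrogenase, and 4 of these 6 genes rose in RNA. Echs1, the short-chain enoyl-CoA hydratase, had the next largest RNA change. Its RNA was 2894, 2846, 2796 and 2957 normalized reads in wild type and 4290, 4358, 4892, 5365 and 4349 in knockout. The groups were far apart, with a log2 fold change of 0.69 ± 0.07 (SE, with a limma adjusted p of 1e-05). Echs1 footprints were 15938, 14226, 15613 and 16638 normalized reads in wild type and 15060, 17551, 18006, 21509 and 15447 in knockout. They overlapped, with a log2 fold change of 0.16 (95% interval -0.09 to 0.40). Echs1 overlaps Paox in the annotation, so its RNA and efficiency values are uncertain without strand. The promoter of Echs1 is shown for comparison with that of Acadm, since it holds the same core motif (capitals, bases -83 to -78 from the start, where -1 is the base before it) while the gene changed in the opposite direction (RefSeq, GRCm38.p6, chr7:140116422-140116671, minus strand, 5′ to 3′).
Echs1: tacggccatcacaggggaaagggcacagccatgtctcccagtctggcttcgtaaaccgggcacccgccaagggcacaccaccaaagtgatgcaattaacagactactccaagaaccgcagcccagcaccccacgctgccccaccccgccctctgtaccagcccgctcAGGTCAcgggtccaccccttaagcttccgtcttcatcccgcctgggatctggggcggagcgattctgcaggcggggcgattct

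Hadha and Hadhb encode the alpha and beta subunits of the mitochondrial trifunctional protein, which carries out the last 3 steps for long chains. Their genes lie head to head on chromosome 5 with 272 bases between them. Hadhb RNA was 25580, 25711, 26108 and 27622 normalized reads in wild type and 29595, 28928, 35509, 36561 and 33259 in knockout, with every knockout heart above every wild-type heart (log2 fold change 0.31 ± 0.08, limma adjusted p = 0.00459). Hadha RNA was 27148, 26659, 26396 and 28973 normalized reads in wild type and 28083, 27076, 34757, 36041 and 30862 in knockout. Knockout hearts 6 and 7 lay inside the wild-type range, and the log2 fold change of 0.19 (95% interval 0.00 to 0.38) did not pass (limma adjusted p = 0.0824). The shared region is shown because both genes start from it. The sequence is the 250 bases before the start of Hadhb (RefSeq, GRCm38.p6, chr5:30155003-30155252, plus strand, 5′ to 3′), and it is all in lower case since none of the 3 motifs was found in it.
Hadhb: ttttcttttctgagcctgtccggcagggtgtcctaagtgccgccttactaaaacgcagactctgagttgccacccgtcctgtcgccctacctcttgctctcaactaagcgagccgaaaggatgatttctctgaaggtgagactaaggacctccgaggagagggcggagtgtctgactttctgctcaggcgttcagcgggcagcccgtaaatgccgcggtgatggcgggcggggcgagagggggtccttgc
Footprints of the subunits were far apart in number. Hadha had 85297, 58904, 82660 and 104503 normalized footprint reads in wild type and 81283, 76393, 104900, 111940 and 94779 in knockout. Hadhb had 5947, 4721, 5385 and 6530 in wild type and 5162, 4445, 5187, 6196 and 6984 in knockout. Both overlapped between genotypes, with log2 fold changes of 0.19 (95% interval -0.14 to 0.53) and -0.02 (-0.31 to 0.27). The Hadha to Hadhb ratio of reads, not corrected for length, was 1.04 ± 0.0215 in wild-type RNA (mean ± SD of 4 hearts) and 0.955 ± 0.0257 in knockout RNA (5 hearts), but 14.5 ± 1.54 and 17.0 ± 2.49 in footprints. The annotation names 1 pseudogene of Hadhb, so its values are uncertain.

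Hadh RNA, which encodes the medium- and short-chain hydroxyacyl-CoA dehydrogenase, was 6268, 6402, 5999 and 7135 normalized reads in wild type and 6801, 6756, 9782, 9538 and 8304 in knockout. Knockout hearts 6 and 7 lay inside the wild-type range, and the log2 fold change was 0.34 ± 0.11 (limma adjusted p = 0.0275). The call was lost without heart 1, 2, 3, 8, 9 or 10, with adjusted p of 0.0503 to 0.0749. Acaa2, the thiolase that releases acetyl-CoA, had 8982, 8425, 7728 and 9373 normalized RNA reads in wild type and 11296, 9826, 15793, 16290 and 11675 in knockout. There was no overlap, and hearts 8 and 9 were the highest (log2 fold change 0.56 ± 0.14, limma adjusted p = 0.00509). Acaa2 footprints were 53726, 39187, 47557 and 63871 normalized reads in wild type and 57757, 52730, 82638, 86781 and 58755 in knockout. Acaa2 had the largest footprint value of the list, 0.40 (95% interval 0.04 to 0.75), which did not pass over all genes (limma adjusted p = 0.851). Hsd17b10, a dehydrogenase that also serves isoleucine breakdown, had log2 fold changes of 0.16 in RNA and 0.10 in footprints and did not pass.

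The auxiliary enzymes handle unsaturated chains. Eci1, an enoyl-CoA isomerase, had 3032, 3133, 2659 and 3608 normalized RNA reads in wild type and 3554, 3720, 5537, 5601 and 4000 in knockout. Knockout heart 6 lay below wild-type heart 4 and the other knockout hearts were above all wild-type hearts (log2 fold change 0.51 ± 0.14, limma adjusted p = 0.0118). Its footprint log2 fold change was -0.06 (95% interval -0.40 to 0.28). Eci2, a second isomerase, and Decr1, the dienoyl-CoA reductase, did not pass, with RNA values of 0.00 and -0.22 and footprint values of -0.01 and 0.09.

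In the electron transfer flavoprotein system both subunits rose in RNA and their oxidoreductase did not pass. Etfa, the alpha subunit, had 7389, 6933, 7084 and 7751 normalized RNA reads in wild type and 9694, 9356, 11057, 11497 and 9684 in knockout, with no overlap (log2 fold change 0.49 ± 0.07, limma adjusted p = 0.000128). Etfb, the beta subunit, had 5951, 6121, 5846 and 6326 in wild type and 6910, 6759, 7710, 7794 and 7003 in knockout, also with no overlap (0.25 ± 0.06, limma adjusted p = 0.00269). Etfb overlaps Cldnd2, so its RNA value is uncertain without strand. The Etfa to Etfb ratio of RNA reads was 1.2 ± 0.0483 over the wild-type hearts (SD, n = 4) against 1.42 ± 0.0391 over the knockout hearts (n = 5). In footprints the ratio was 5.38 ± 1.2 and 5.52 ± 1.18, and neither subunit passed (0.16, 95% interval -0.13 to 0.44, and 0.11, -0.29 to 0.52). Etfdh, which hands the electrons to ubiquinone, had an RNA log2 fold change of -0.13 and a footprint value of 0.09. It overlaps Ppid, whose RNA had a log2 fold change of -0.40 (limma adjusted p = 0.000643), so the RNA value of Etfdh is uncertain.

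Peroxisomes shorten chains too long for mitochondria. Of the 3 peroxisomal genes only the thiolase Acaa1a passed in RNA, with 555, 515, 657 and 576 normalized reads in wild type and 835, 823, 867, 797 and 839 in knockout. The groups were well apart (log2 fold change 0.54 ± 0.07, limma adjusted p = 7.65e-05), and the footprint value was 0.20 (95% interval -0.15 to 0.55). The bifunctional enzymes Ehhadh and Hsd17b4 had RNA log2 fold changes of 0.06 (95% interval -0.44 to 0.57) and 0.05 (-0.07 to 0.18). Hsd17b4 footprints were 6459, 4411, 5567 and 6851 normalized reads in wild type and 7206, 6500, 7404, 7785 and 6466 in knockout, with a log2 fold change of 0.30 (0.02 to 0.57) that did not pass over all genes.

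All 3 genes of control rose in RNA. Mlycd breaks down malonyl-CoA, the inhibitor of carnitine palmitoyltransferase 1, and Acacb makes it at the mitochondrial surface, so they act against each other. Mlycd RNA was 1068, 1031, 855 and 971 normalized reads in wild type and 1812, 1339, 1609, 1598 and 1282 in knockout, with no overlap (log2 fold change 0.63 ± 0.10, limma adjusted p = 0.000371). Mlycd overlaps Gm46053 and Gm32006 in the annotation, so its RNA and efficiency values are uncertain without strand. Acacb RNA was 6282, 6188, 6171 and 6902 in wild type and 7752, 7450, 7815, 7992 and 7485 in knockout, also apart (0.27 ± 0.05, limma adjusted p = 0.000739). Both opposed enzymes were thus higher, Mlycd by more on the log2 scale, a difference that was not tested. Ppara, the nuclear receptor named above, had 189, 213, 251 and 258 normalized RNA reads in wild type and 274, 396, 280, 330 and 439 in knockout. The lowest knockout heart was just above the highest wild-type heart (log2 fold change 0.58 ± 0.15, limma adjusted p = 0.00711). Ppara footprints were 1018, 1084, 1587 and 1988 normalized reads in wild type and 860, 1636, 1169, 1632 and 1921 in knockout, a full overlap, with a log2 fold change of 0.02 (95% interval -0.46 to 0.51). Footprint values of Mlycd and Acacb were 0.19 (-0.08 to 0.47) and 0.07 (-0.17 to 0.30).

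Translational efficiency set these assays against each other, as the genotype by assay interaction in a limma model over the 18 libraries. Acads efficiency was 4.35, 3.80, 4.59 and 4.44 in wild type and 2.49, 2.63, 2.59, 2.59 and 2.23 in knockout. Every knockout heart was below every wild-type heart, and the log2 fold change was -0.78 ± 0.13 (SE, with a limma adjusted p of 0.000454). Echs1 efficiency was 5.51, 5.00, 5.58 and 5.63 in wild type and 3.51, 4.03, 3.68, 4.01 and 3.55 in knockout, again with every knockout heart below (-0.53 ± 0.13, limma adjusted p = 0.0115). Cpt1b efficiency was 2.85, 3.33, 3.20 and 3.16 in wild type and 2.25, 2.30, 2.35, 2.40 and 2.23 in knockout (-0.44 ± 0.11, limma adjusted p = 0.0106), without overlap. Acadm was the opposite case. Its efficiency was 1.06, 0.89, 0.99 and 1.04 in wild type and 1.37, 1.59, 1.47, 1.53 and 1.51 in knockout, with every knockout heart above (0.59 ± 0.16, limma adjusted p = 0.0168). Without heart 2 or heart 3 this call was lost, at an adjusted p of 0.0507 in both cases.

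**Figure D2:**
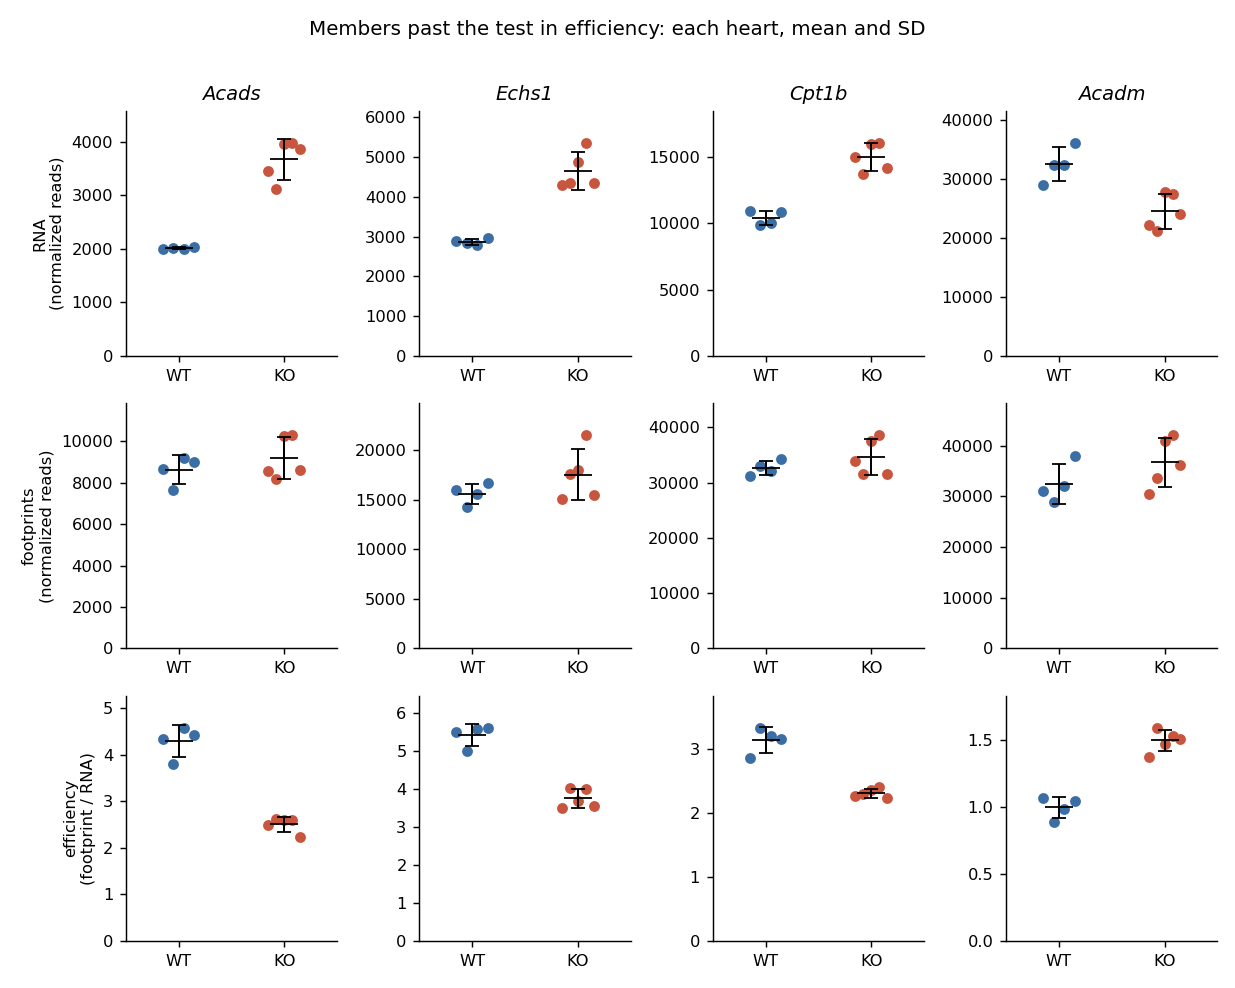
Normalized RNA reads, normalized footprint reads and efficiency (footprint over RNA; y axes from 0) of Acads, Echs1, Cpt1b and Acadm in each wild-type (WT, n = 4) and knockout (KO, n = 5) heart, with the mean and SD. The genotypes are apart in RNA and in efficiency and overlap in footprints, and Acadm is reversed with respect to the other genes.

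With the heart as a block, which pairs the RNA and footprints of each animal, 2 members rose in efficiency and 8 fell, where 9.92% of all genes rose and 8.65% fell. Beside the 4 named, Eci1 (-0.56, limma adjusted p = 0.000734), Mlycd (-0.44, 0.0133), Ppara (-0.55, 0.0324), Slc25a20 (-0.36, 0.0365) and Etfa (-0.33, 0.0382) then fell and Decr1 (0.31, 0.0273) rose. With quantile normalization within each assay, 1 rose and 6 fell, where 6.20% of all genes rose and 6.93% fell, against 1 and 3 members without it. The median efficiency value of the list was -0.14, against -0.02 over all genes. Of the 17 members higher in RNA, all 17 had an efficiency value below 0 and a footprint fold change smaller than that in RNA, and 14 had a footprint value above 0. Efficiency holds the same RNA values that made those 17 calls, so this count is no independent evidence of lower efficiency. The counts of 17 and 14 were not made over all genes higher in RNA, so they are not shown to be particular to the list. Among all genes tested, 24.3% rose in RNA and 0.0200% passed in footprints in either direction.

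The members moved together from heart to heart within a genotype. In knockout hearts 8 and 9, 27 of the 31 genes were above the knockout mean in RNA in each, and 27 and 28 in footprints. In knockout heart 7 only 3 were above it in RNA and 4 in footprints, and in heart 6 it was 7 in each assay. The median deviation of the 31 genes on the log2 scale was 0.11 and 0.13 in RNA and 0.14 and 0.20 in footprints for hearts 8 and 9, and -0.16 in both assays for heart 7. Among wild-type hearts, heart 4 was high, with 24 genes above the mean in RNA and 29 in footprints. Wild-type heart 2 was low in footprints, where 5 of 31 were above the mean with a median deviation of -0.20, and it is the shallowest library. The median over all genes lay near 0 in every library. Knockout hearts 8 and 9 were also the most alike knockout pair over the listed genes. The chi-square per degree of freedom between their reads was 6.05 in RNA and 27.4 in footprints. Other knockout pairs had 18.1 to 40.3 and 51.4 to 86.8. Cardiomyocyte markers deviated by 0.11 and 0.09 in RNA and by 0.05 and 0.04 in footprints in knockout hearts 8 and 9, and their part in the pattern was not tested.

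**Figure D3:**
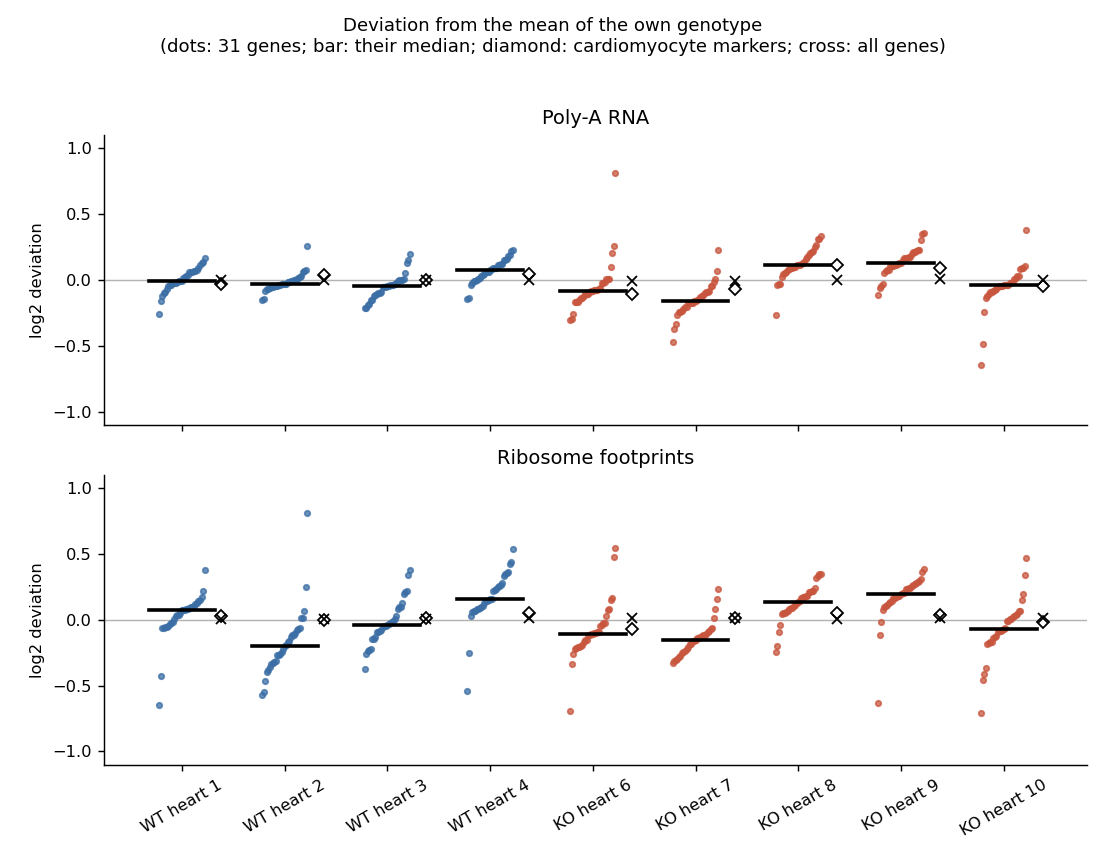
Deviation on the log2 scale of each of the 31 genes (dots) from the mean of its own genotype in every heart (x axis), in RNA and footprints; bars give the median of the 31 genes, diamonds the median of 7 cardiomyocyte markers and crosses the median of all genes. Knockout hearts 8 and 9 and wild-type heart 4 lie high and knockout hearts 6 and 7 low in both assays. The median of all genes stays near 0, where the scaling of each library tends to place it.

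The spread between hearts bears on the size of the genotype difference. Without knockout hearts 8 and 9, a choice made after their values were seen, 15 members rose in RNA and 5 fell, where 20.2% of all genes rose and 21.6% fell. Acad9 and Hadh were no longer called, and Crat (-0.20), Acadl (-0.18), Decr1 (-0.39) and Etfdh (-0.25) were called lower beside Acadm. The RNA median of the list went from 0.27 to 0.19, and 21 of the 31 values were above 0. In footprints the median went from 0.12 to 0.03 with 19 of 31 above 0, and without wild-type heart 2 it was 0.06 with 22 of 31 above 0. Summed footprints of the 31 genes came to 551831 ± 78770 normalized reads over wild-type hearts (SD, n = 4) against 615080 ± 82124 over knockout hearts (n = 5), a difference smaller than the spread between hearts. Summed RNA was 239148 ± 12108 and 263384 ± 28589, and the ranges overlapped. As a share of the RNA reads of all listed genes in the same heart, the 31 genes took 1.47% to 1.55% in wild type and 1.64% to 2.03% in knockout, which did not overlap. A share also depends on the total. Knockout heart 7 and wild-type heart 3 had close RNA sums of the 31 genes, 231222 and 230010 normalized reads. Their shares were 1.64% and 1.47%, so the normalized total was lower in heart 7. The share of footprints taken by the 31 genes was 2.01% to 2.88% in wild type and 2.41% to 3.06% in knockout, which overlapped.

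**Figure D4:**
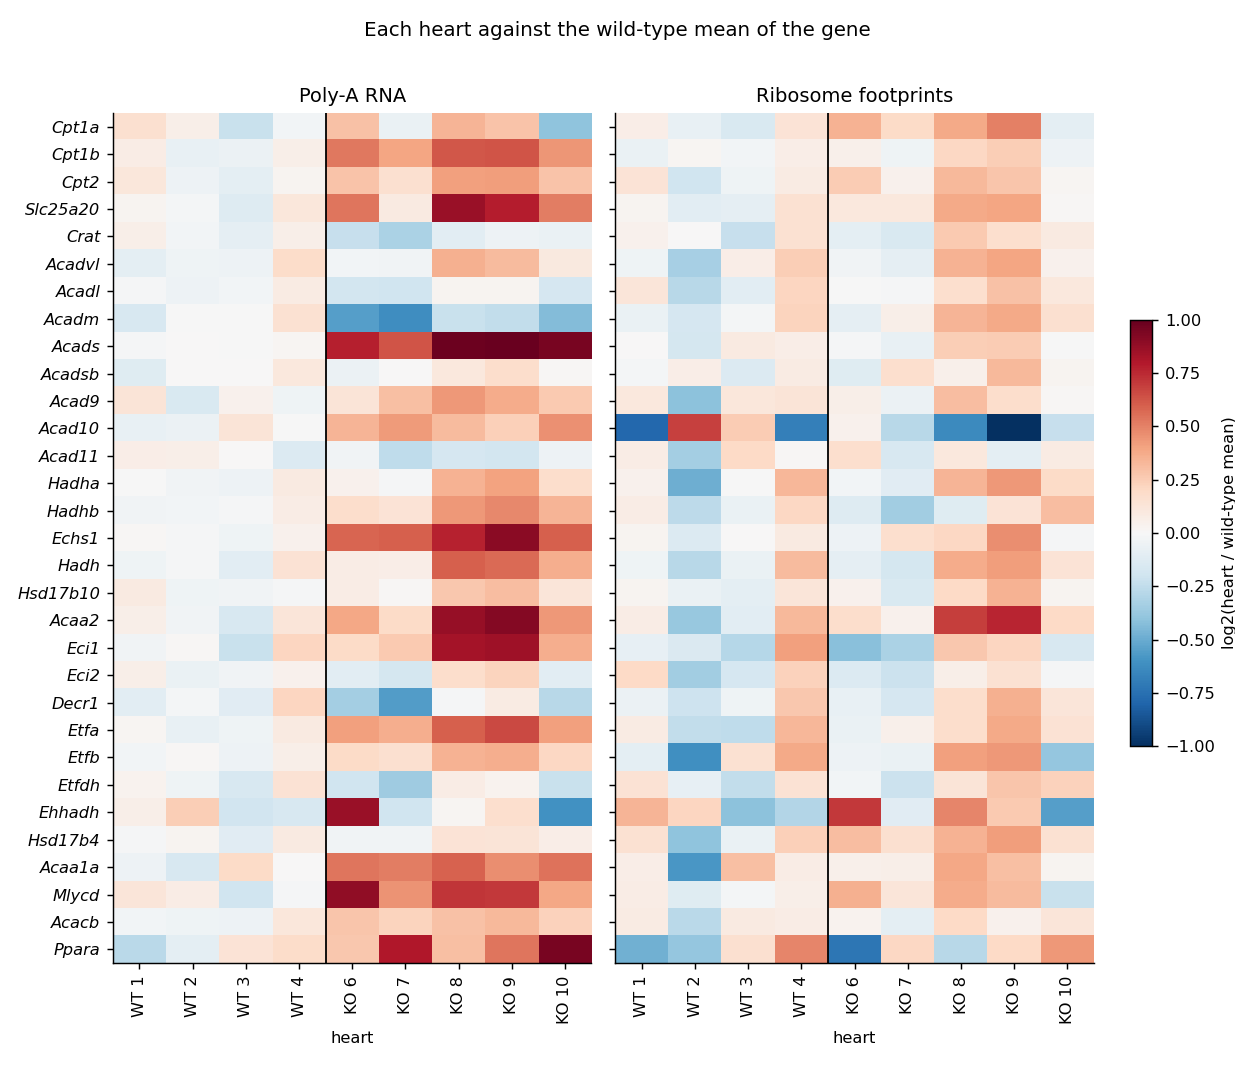
Each heart's value relative to the wild-type mean of the gene, as log2 (colour, limited to the range from -1 to 1), for 31 genes (rows) and 9 hearts (columns; WT wild type, KO knockout) in RNA and footprints. The RNA of Acads, Echs1 and Mlycd is high in all 5 knockout hearts and that of Acadm low, while knockout hearts 8 and 9 are high over most rows in both assays.

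In wild-type hearts the members differed widely in efficiency. The median over the 31 genes was 3.02 and that of all 9974 genes tested 1.45, and 25 members lay above the latter. The highest values were those of Ppara, 6.12 ± 1.18, Acaa2, 5.90 ± 0.907, Eci1, 5.67 ± 0.608, Echs1, 5.43 ± 0.291, and Hadh, 5.38 ± 0.659 (SD, n = 4), and neighbours in this order lie within 1 SD of each other. At the low end stood Acad10, 0.122 ± 0.0613, and Hadhb, 0.215 ± 0.0247, at the 3.45th and 5.90th percentile of all genes, followed by Etfb, 0.775 ± 0.206, Crat, 0.789 ± 0.0535, Acadm, 0.996 ± 0.0786, and Acacb, 1.1 ± 0.123. The measured ratios of subunits of the same protein were thus apart, since Hadha was at 3.02 ± 0.586 and Etfa at 3.33 ± 0.50. Hadhb has a named pseudogene, and Acad10, Etfb, Crat and Echs1 overlap other genes, so their ratios are uncertain. The same holds for Cpt1a, Cpt1b, Acadl, Acad11, Eci2, Etfdh, Hsd17b4 and Mlycd, which also overlap annotated genes. The ratio has no absolute scale, because each assay has its own size factors and the sources used here do not give the counted length of each gene.

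**Figure D5:**
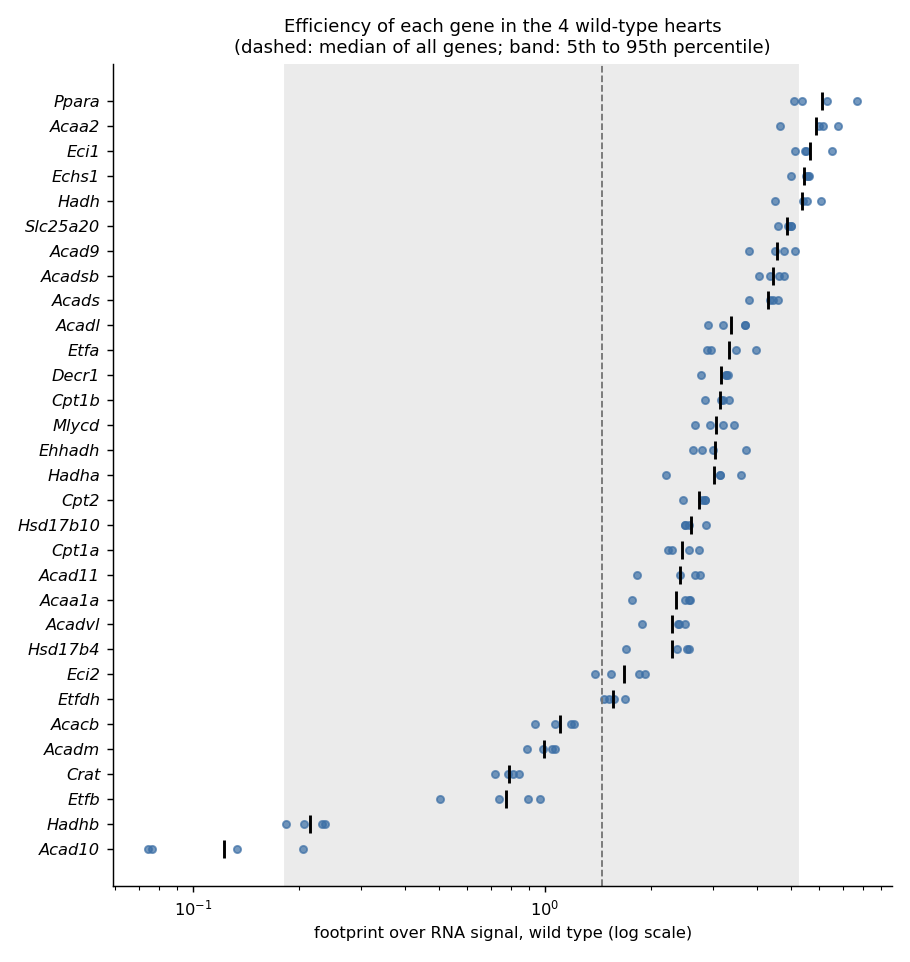
Footprint over RNA signal (x axis, log scale) of each of the 31 genes (y axis, ordered by mean) in the 4 wild-type hearts (dots; ticks give the mean), with the median (dashed line) and the 5th to 95th percentile (band) of all genes tested. Of the 31 genes, 25 lie above the dashed line at 1.45. Acad10 at 0.122 (overlapped by another gene) and Hadhb at 0.215 (with a named pseudogene) stand apart at the low end.

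Genes next to the pathway changed in both directions in RNA. Of 15 genes of fatty acid uptake and activation, 4 rose and 4 fell in RNA, among them the fatty acid transporters Slc27a1 (1.04 ± 0.13, limma adjusted p = 4.9e-05) and Slc27a4 (0.42 ± 0.08) higher, and the binding protein Fabp3 (-1.05 ± 0.10, limma adjusted p = 1.09e-05) and the acyl-CoA synthetase Acsl3 (-0.55 ± 0.18) lower. Of 16 further peroxisomal genes 9 rose and 1 fell, led by Acaa1b (0.87 ± 0.09), Ech1 (0.74 ± 0.13), Decr2 (0.60 ± 0.16) and Acox3 (0.49 ± 0.07). Of 15 transcriptional regulators 3 rose and 2 fell. The coactivator Ppargc1a fell (-0.70 ± 0.06, limma adjusted p = 5.45e-06) with the corepressor Ncor1 (-0.45 ± 0.04), while the receptors Rxrg (0.54 ± 0.06) and Esrra (0.38 ± 0.06) rose. Of 8 genes around malonyl-CoA and the AMP-activated kinase 2 rose and 4 fell, led by Mcat (0.95 ± 0.09) higher and the kinase subunits Prkab2 (-0.90 ± 0.11), Prkag2 (-0.56 ± 0.07) and Prkaa1 (-0.45 ± 0.09) lower. These counts stand against 24.3% higher and 25.1% lower over all genes, and none of these genes passed in footprints.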

How the data were processed

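The 31 genes and the lists beside them were chosen with earlier results of these data known. Gene symbols were taken from the Ensembl identifiers, and 10560 of 10597 had one. Per the labels' protocols, TRIzol was used for extraction, an Illumina TruSeq kit for the RNA libraries (a kind known not to mark strand) and a NEXTflex small RNA kit for the footprints. The tools named, per the submitters' processing notes, are DESeq2, HTSeq and STAR 2.7.1a, on GRCm38 (mm10). Signal values in the deposited tables of RNA and footprints are gene counts that the authors divided by 1 size factor per library, per the file headers and the values. Deposited efficiencies are the ratio of both signals in a heart, within 0.0497% of the quotient. Log2 fold changes and p-values deposited by the authors come with each table, and the sign of those for efficiency was turned to knockout over wild type. Whole reads were recovered with a tolerance of 0.01 reads. In knockout RNA too few values are low enough to check that step, so edgeR 4.0.16 and DESeq2 1.42.0 were run on footprint reads only, as alternatives.

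The main test was limma 3.58.1 (R 4.3.3) on log2(value + 1), a scale that understates changes of low genes, with a trend of variance on mean, for genes with a mean of at least 10. Adjustment (Benjamini-Hochberg, threshold 0.05) was over all genes tested, 10580 in RNA, 9976 in footprints and 9974 in efficiency. Intervals are 95%. Efficiency was the genotype by assay interaction over 18 libraries without a term for the heart, and a replicate block for the heart was added in an alternative. The labels tie RNA and footprints to the same animal. Checked in the data, deviations of a heart's RNA and footprints from their genotype means correlated at 0.310 to 0.760 within a heart (median 0.513) over 1555 genes. Between hearts of a genotype the correlations ran from -0.526 to 0.617 (median -0.211), so both ranges overlapped. Subtracting the mean itself pushes the values between hearts below 0. No pair of replicate libraries agreed within sampling noise. The labels name separate hearts but no litters or dates. All 31 genes are named; values in every heart are given for those called in any comparison and for Cpt1b, Acadm, Hadha, Hadhb and Ppara, and up to 4 called genes of each further list, of which 1 list is not reported here. Scripts were tested on simulated data. Promoters and gene positions are from RefSeq on GRCm38.p6.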

Additional observations from a re-analysis of the deposited data

Results flagged for a closer look

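In 7 of 186 groups of hearts (1 gene, assay and genotype each) the highest or lowest heart stood apart from the rest by Dixon's criterion at 95%, where chance gives about 1 in 20. In 5 of them the heart was wild-type heart 2, the lowest each time, and its footprint library is the shallowest at 6.67 M reads (M, 1e6). Acad9 footprints were 1798 normalized reads there, against 2579 to 2620 in the other wild-type hearts. Acacb footprints were 5809 there, against 7374 to 7450. Efficiency in that heart was 2.47 for Cpt2 (2.79 to 2.85 in the others), 2.76 for Decr1 (3.26 to 3.31) and 1.77 for Acaa1a (2.49 to 2.57). The part of depth in these values was not tested. Acacb RNA was highest in wild-type heart 4, at 6902 normalized reads against 6171 to 6282. Slc25a20 efficiency was highest in knockout heart 7, at 4.92 against 3.44 to 3.70 in the other knockout hearts.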

How the results depend on the processing

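The counts of 17 members higher in RNA and of 0 higher and 0 lower in footprints stayed within 1.5 times under every alternative run, and RNA counts higher ran from 15 to 19. Leaving out 1 heart at a time, members lower in RNA numbered 1 to 3 (2 without heart 4, 3 without heart 9), and members higher in efficiency 0 to 1 (0 without heart 2 or 3). Without hearts 8 and 9 together 5 were lower in RNA. Members lower in efficiency numbered 3 as fitted first, 6 with quantile normalization and 8 with the heart as a replicate block, which also gave 2 higher and changed no RNA or footprint call, as it applies to efficiency only. With quantile normalization Hadha and Hsd17b10 were also called higher in RNA, with log2 fold changes of 0.37 and 0.25, and both passed without heart 7 too. Hadha also passed without heart 6, and calls of lower RNA were gained for Crat and Decr1 without heart 9 and for Acad11 without heart 4, and of lower efficiency for Acaa1a without heart 2. Values that changed sign were all of members not called in that same comparison, though some of those genes were called in another. Over the fits without 1 heart, RNA values ran from -0.051 to 0.048 for Eci2 and -0.14 to 0.22 for Ehhadh. Footprint values ran from -0.020 to 0.11 for Acacb, -0.076 to 0.10 for Acad11, -0.017 to 0.16 for Acad9, -0.013 to 0.11 for Crat, -0.14 to 0.089 for Eci1, -0.12 to 0.074 for Eci2, -0.076 to 0.26 for Etfb, -0.11 to 0.058 for Hadhb and -0.12 to 0.20 for Ppara. Efficiency values ran from -0.0052 to 0.073 for Acadsb, -0.091 to 0.044 for Acadvl, -0.10 to 0.057 for Eci2 and -0.14 to 0.095 for Hadha. Quantile normalization gave efficiencies of -0.059 for Acadvl, -0.068 for Acadsb and -0.24 for Hadha, and the authors' deposited table -0.038 for Acadvl and -0.051 for Hadha. Without hearts 8 and 9, RNA values were -0.049 for Cpt1a, -0.0097 for Acadsb, -0.13 for Eci2 and -8.46e-05 for Hsd17b4. Footprint values were then -0.014 for Cpt1b, -0.046 for Crat, -0.014 for Acadvl, -0.025 for Acads, -0.028 for Hadh, -0.024 for Hsd17b10, -0.030 for Decr1 and -0.12 for Etfb, and efficiencies -0.028 for Acadvl, -0.024 for Hadha and 0.028 for Eci2. The cause of these changes was not tested. Fits that leave out hearts also rest on fewer hearts, and the part of that was not tested either. Count tests on RNA and efficiency were not run.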

Other observations

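Genes of neighbouring lipid and acyl-CoA pathways also changed in RNA, beside 24.3% higher and 25.1% lower over all genes, and none of them passed in footprints. Of 10 genes of fat stores and lipolysis 6 rose and 1 fell. Among them were Plin5, which coats lipid droplets at mitochondria (0.77 ± 0.10 on the log2 scale, SE), the hormone-sensitive lipase Lipe (0.71 ± 0.16), the acyltransferase Dgat2, which completes triglyceride synthesis (0.65 ± 0.15), and the monoglyceride lipase Mgll (0.57 ± 0.10). In efficiency 4 of the 10 fell and 0 rose, including Plin5 (-0.84 ± 0.20) and Dgat2 (-0.78 ± 0.21), where 6.55% of all genes fell. Efficiency holds the same RNA values in which Plin5 and Dgat2 rose, so it is no independent evidence. Each other list reported here had 1 gene lower in efficiency, except the transcriptional regulators with 3 of 15, and 0 to 2 genes higher. Of 6 adipocyte markers only Cfd was measured, at 17.6 to 85.6 normalized RNA reads in wild type and 14.9 to 74.6 in knockout. Of 10 thioesterases, which release free fatty acids from acyl-CoA, 4 rose and 2 fell, led by Acot4 (1.75 ± 0.18), Acot5 (1.58 ± 0.24), Acot3 (1.17 ± 0.20) and Acot7 (0.59 ± 0.13). These Acot genes are close copies of each other in part, so their reads are uncertain.

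Of 15 enzymes of branched-chain and odd-chain acyl-CoA breakdown 6 rose and 2 fell. Ivd, the isovaleryl-CoA dehydrogenase (0.56 ± 0.11), Bckdha, a subunit of the branched-chain keto acid dehydrogenase (0.56 ± 0.07), Hibadh (0.51 ± 0.06) and Acad8 (0.43 ± 0.12) were the largest.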
